A study of Homo sapiens with 10 samples.

Results

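NCL and NPM1, the genes of the nucleolar proteins nucleolin and nucleophosmin, were followed across the deposited peak lists of 3 forms of MYC. They are 2 of 20037 protein-coding genes on the main chromosomes of the gene table, and were taken by name on hg38 with every peak whose summit lay inside the gene or within 20 kb of it. That rule gave 3 peaks for both genes together from 845 peaks in the 3A list, 0 from 64 in the 7A list and 2 from 4749 in the WT list. All cells were U2OS, a human osteosarcoma line, with the endogenous MYC gene knocked out and a FLAG-tagged MYC that doxycycline switches on. The groups with a peak list received 1 µg/mL doxycycline over 24 h and were immunoprecipitated with an antibody to FLAG: mutant 3A (2 libraries), mutant 7A (2 libraries) and wild type, WT (2 libraries). Uninduced WT immunoprecipitates (2 libraries) and WT inputs with and without doxycycline (1 library each) have no list used here. The labels do not say which residues 3A and 7A change, or whether each line is 1 clone. Mouse NIH3T3 cells were mixed in at 10% as a spike-in. Each protein has 1 list, so there is no spread between replicates for any value, and no difference between proteins could be tested across replicates. Sequencing depth of the libraries was not analysed here, and a peak list has no expression values with which the cell line could be checked.

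MYC pairs with MAX and binds E-box sequences such as CACGTG, often near the starts of genes, among them genes for growth and ribosome production. Nucleolin is an abundant RNA-binding protein that takes part in ribosomal RNA transcription and the maturation of its precursor. Nucleophosmin is a histone chaperone that forms a scaffold of the outer nucleolar layer, carries ribosomal subunits towards export and holds the tumour suppressor ARF in the nucleolus. Both genes are long-known MYC targets, with MYC sites described in the first intron of each.

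The 250 bases before the start of each gene are shown because in both genes the 3A peaks covered 0 of them and the WT peak covered them whole. How many other windows had this pattern was not computed, so it is not shown to be particular to these genes. Peaks in the 3A list were also narrower, with a median width of 572 bp against 790 bp in the WT list. Both windows are RefSeq sequences of GRCh38.p14, 5′ to 3′ on the gene's own strand. Capitals mark the non-canonical E-box CACGCG on either strand. NCL lies on the minus strand at chr2:231464485-231464734, and NPM1 on the plus strand at chr5:171387599-171387848.

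NCL: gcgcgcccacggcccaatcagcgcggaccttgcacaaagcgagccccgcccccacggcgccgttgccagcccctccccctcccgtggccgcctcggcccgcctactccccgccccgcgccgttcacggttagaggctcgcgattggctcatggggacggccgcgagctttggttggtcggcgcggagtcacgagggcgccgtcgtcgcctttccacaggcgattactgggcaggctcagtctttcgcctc

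NPM1: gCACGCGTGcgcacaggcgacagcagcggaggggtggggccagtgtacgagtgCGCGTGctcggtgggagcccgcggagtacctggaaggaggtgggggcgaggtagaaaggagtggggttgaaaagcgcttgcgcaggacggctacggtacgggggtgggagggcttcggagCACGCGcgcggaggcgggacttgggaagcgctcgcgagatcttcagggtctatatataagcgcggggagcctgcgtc

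The canonical E-box CACGTG was found in neither window, and the wider pattern CANNTG in neither. CACGCG, counted on both strands, was found 4 times before NPM1, its first bases 249, 247, 197 and 77 bp before the start, the outermost 2 matches overlapping each other. It was found 0 times before NCL. Over all 35116 windows of this length in the sequence table, 6.34% held CACGTG, 9.72% held CACGCG and 61.8% held CANNTG, on either strand. Both windows were rich in G and C, with 72.0% in NCL and 67.6% in NPM1 against a median of 58.0% over all windows. NPM1 has a second annotated start 733 bp further upstream, whose own 250 bases were covered by 0 bp of any peak. The summits lay further downstream than these windows reach, and the bases under them were not analysed here.

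3A had a peak at NPM1 and a pair of weaker ones at NCL, 7A had none at either gene, and WT MYC had a single strong peak at each. NCL spans chr2:231453531-231464484 and NPM1 spans chr5:171387116-171410900. Beside these counts, 7.21% of protein-coding genes had a 3A summit inside or within 20 kb, 0.359% had a 7A summit and 31.7% had a WT summit. Nearly all genes thus shared the absence of a 7A peak with NCL and NPM1. Folds and −log10 q values below are the authors' own for each peak: the fold is the enrichment of immunoprecipitated fragments over the local background, and the −log10 q is the adjusted significance given by the peak caller.

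At NCL the stronger 3A peak ran over chr2:231463672-231464458, 787 bp wide, with a fold of 3.28 and a −log10 q of 16.8. The weaker 3A peak ran over chr2:231464794-231465298, 505 bp wide, with a fold of 1.95 and a −log10 q of 2.12. The WT peak ran over chr2:231463429-231465233, 1805 bp wide, with a fold of 27.0 and a −log10 q of 472. Both 3A peaks thus overlapped the same WT peak, the stronger with 787 bp and the weaker with 440 bp. Of WT peaks 0.337% (16 of 4749) overlapped 2 or more 3A peaks, and 1.03% overlapped a 7A peak. Among the 717 WT peaks with any 3A peak, the share with 2 or more was 2.23%. At a −log10 q of at least 5 the weaker 3A peak was no longer counted. The 3A peaks left a gap of 335 bp between them, from 310 bp upstream of the NCL start to 26 bp downstream of it, so the start itself lay under no 3A peak and under the WT peak.

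At NPM1 the 3A peak ran over chr5:171387909-171388821, 913 bp wide, with a fold of 6.20 and a −log10 q of 74.8. The WT peak ran over chr5:171387321-171388947, 1627 bp wide, with a fold of 20.1 and a −log10 q of 479.8. The 3A peak lay whole inside the WT peak and took up 56.1% of it. It began 60 bp downstream of the main start, whereas the WT peak began 528 bp upstream of it. An overlapping 3A peak was found for 15.1% of all WT peaks, and both genes were in that share.

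**Figure D1:**
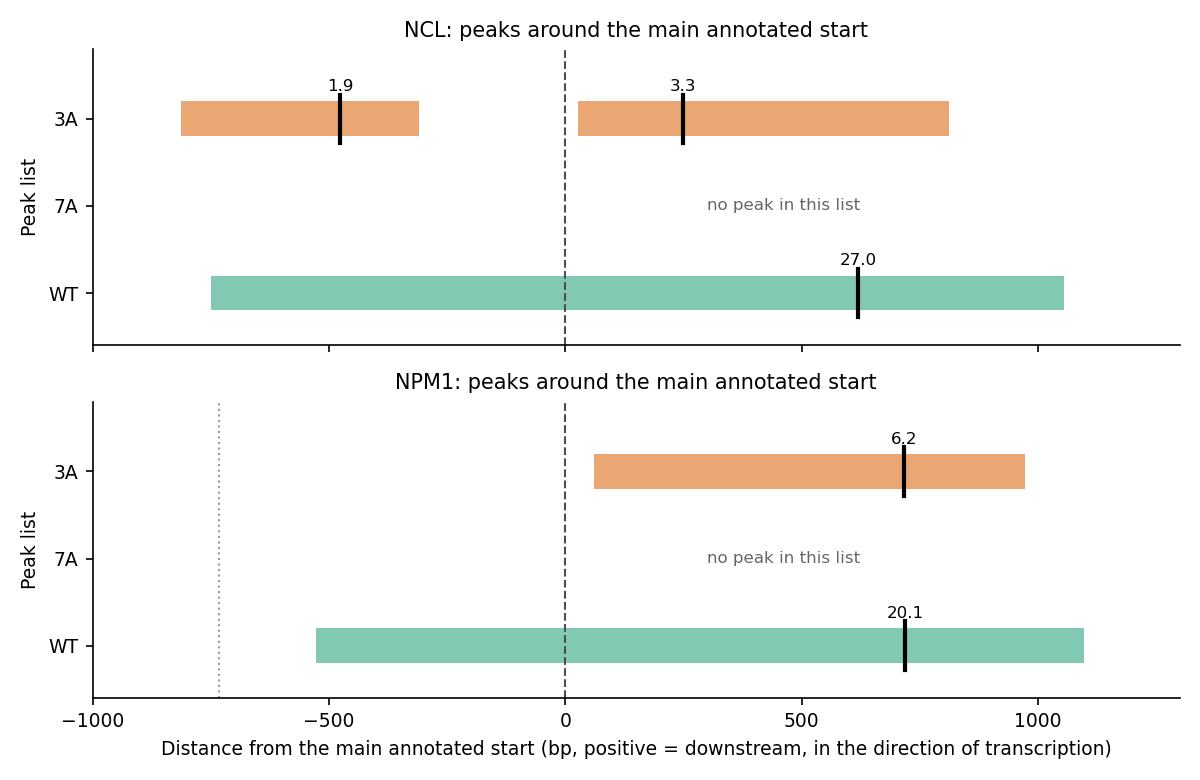
Peaks of the 3A, 7A and WT lists around the main annotated start of NCL (top) and NPM1 (bottom), by distance in bp along the direction of transcription. Bars are peaks, black ticks are summits with the authors' fold above them, the dashed line is the main start and the dotted line the second NPM1 start. The 3A and WT summits coincide at NPM1 and stand apart at NCL.

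The summits were inside the genes, except that of the weaker 3A peak at NCL. At NCL the 3A summits were 248 bp downstream and 476 bp upstream of the start, and the WT summit was 620 bp downstream. At NPM1 the 3A summit was 717 bp and the WT summit 719 bp downstream of the main start, or 1450 and 1452 bp downstream of the second one. The gene table has no exons, so exon and intron were not assigned. Such positions were in the outer part of the distribution. Of summits within 2 kb of an annotated protein-coding start, 12.5% of 558 in the 3A list and 20.4% of 2852 in the WT list lay 200 to 1000 bp downstream. The median position was 14.5 bp downstream in the 3A list and 37.0 bp downstream in the WT list.

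**Figure D2:**
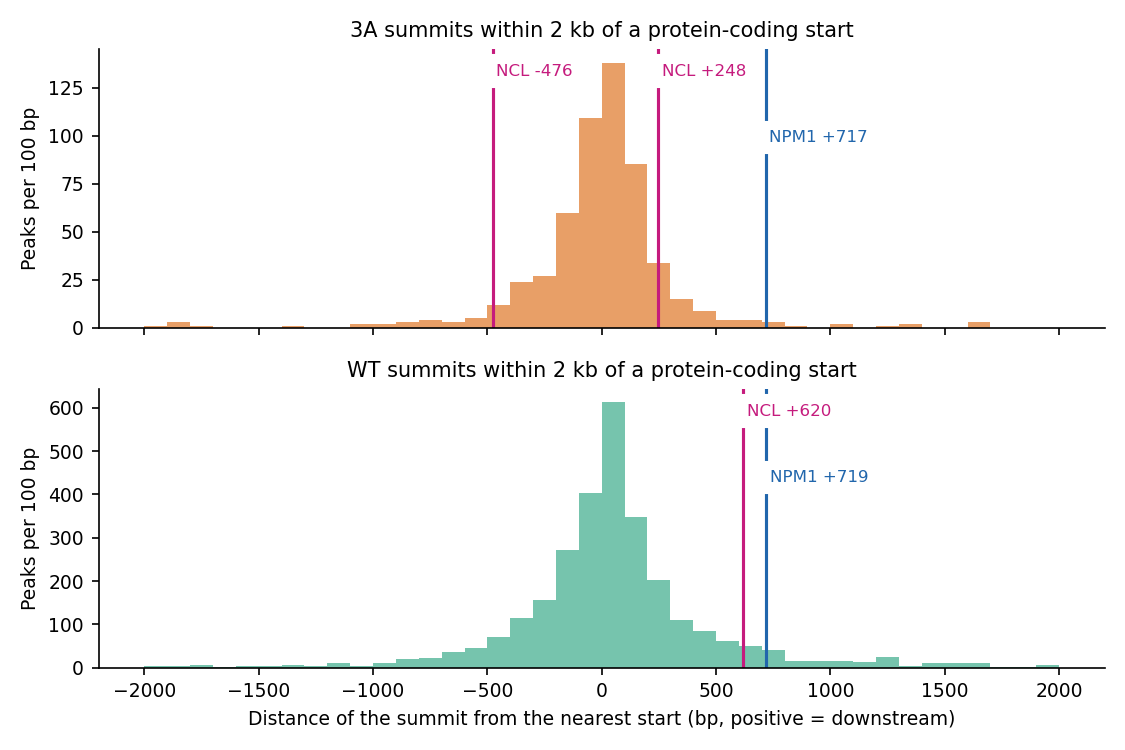
Number of summits per 100 bp against distance in bp from the nearest protein-coding start, for the 3A list (top) and the WT list (bottom). Vertical lines give the NCL and NPM1 summits by distance from their main start. Most summits of both lists crowd near the start, and the NPM1 summits at 717 and 719 bp lie well downstream.

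The 3A and WT summits were 2 bp apart at NPM1 and 372 bp apart at NCL, or 1096 bp for the weaker 3A peak. Over 734 pairs of overlapping 3A and WT peaks, made of 733 3A peaks and 717 WT peaks, the median distance was 49.0 bp with quartiles of 19.0 and 111 bp. The summits of 2.59% of pairs were as near as those at NPM1. Those of 6.81% were as far apart as the stronger NCL pair, and those of 0.681%, 5 pairs, as far apart as the weaker one. The genes therefore differed in where 3A signal was highest relative to the WT summit.

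**Figure D3:**
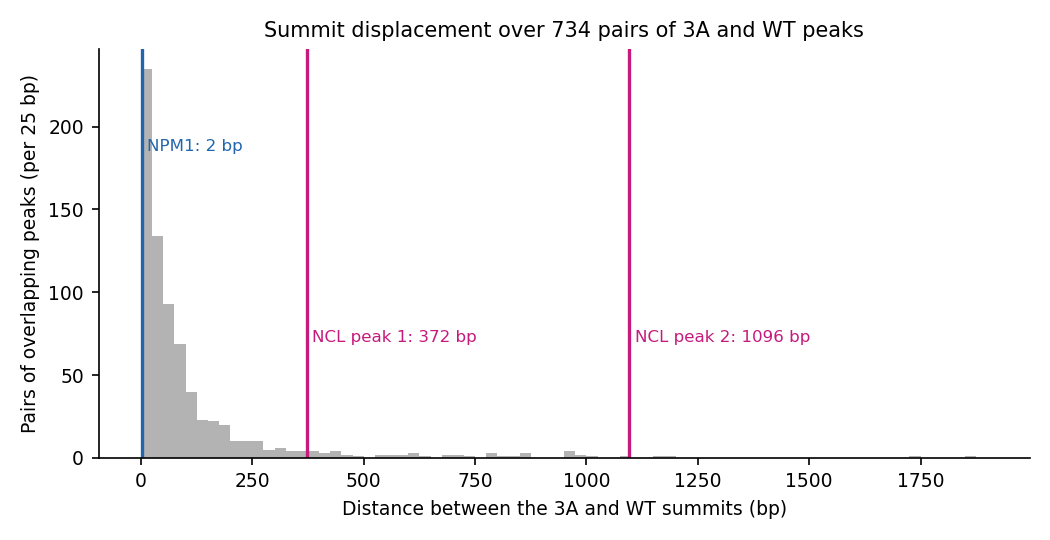
Histogram of the distance in bp between 3A and WT summits over 734 pairs of overlapping peaks, in bins of 25 bp, with vertical lines at NPM1 (2 bp) and at the NCL pairs (372 and 1096 bp). NPM1 falls in the first bin and NCL in the sparse tail.

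Strength also set the genes apart. NPM1 ranked 14th of 845 peaks by fold in the 3A list and 18th of 4749 in the WT list. NCL ranked 480th and 838th of 845 in the 3A list with its pair of peaks and 5th of 4749 in the WT list. The lists differ in length, so these ranks show no change by themselves, but the 734 pairs allow both folds to be ranked over the same peaks. Among them NPM1 was 14th by 3A fold and 15th by WT fold, and NCL was 440th by 3A fold with its stronger pair and 4th by WT fold. NPM1 thus kept its place near the top in both, while NCL was below the middle by 3A fold and near the top by WT fold. Measures of strength other than fold placed the stronger NCL peak higher in the 3A list, at 234th of 845 by −log10 q and 155th by pileup.

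The ratio of the 3A fold to the WT fold was 0.308 at NPM1, and 0.121 and 0.072 at NCL. Its median over the 734 pairs was 0.535, with quartiles of 0.399 and 0.699. The NCL pairs had the lowest and the second lowest ratio of all 734, and NPM1 was the 74th lowest. Both NCL pairs share 1 WT peak, so their ratios have the same WT fold. Over the pairs the highest 3A fold was 8.15 and the highest WT fold 30.5, so a WT fold as high as that of NCL by itself keeps the ratio low. By the ratio of pileups, the fragment numbers given below, the NCL pairs were the lowest and the 6th lowest and NPM1 the 65th lowest. Folds of different lists have no common scale, so a ratio under 1 does not measure loss of binding, and only its order among pairs was read. The weaker NCL pair sets a 3A summit upstream of the gene against a WT summit inside it.

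**Figure D4:**
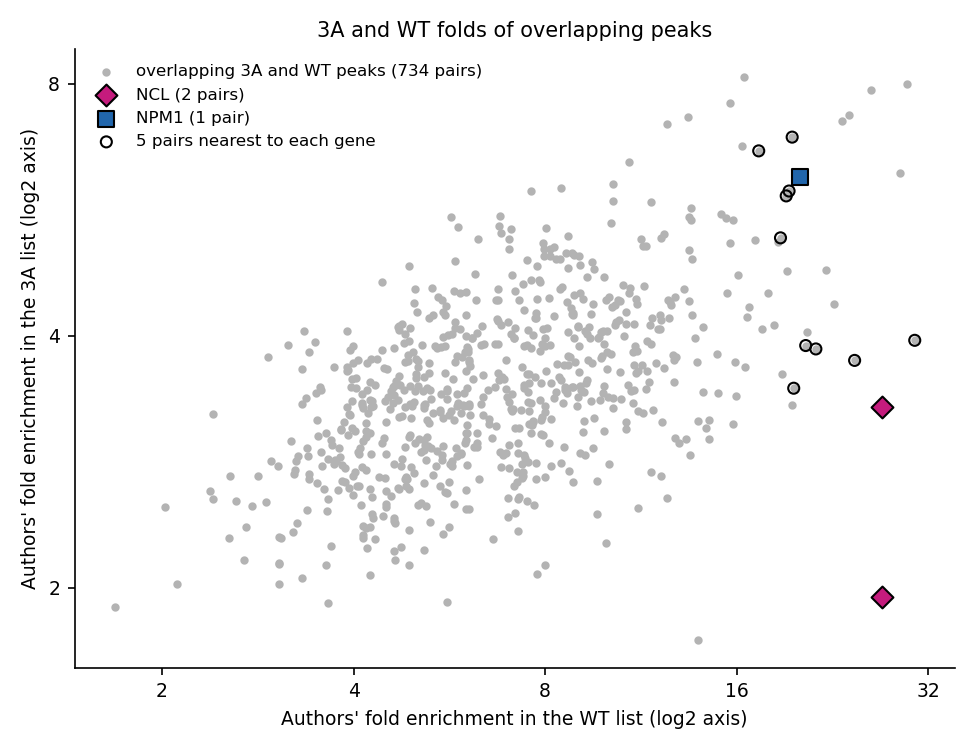
The authors' fold in the 3A list against that in the WT list for 734 pairs of overlapping peaks, both axes on a log2 scale, with NCL as diamonds, NPM1 as a square and the 5 pairs nearest to each gene ringed. NCL lies at the lower right, with 3A folds of 3.28 and 1.95 and a WT fold of 27.0, and NPM1 at the upper right.

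The fragments behind these folds can be recovered, since fold and p fix the pileup (the number of fragments over the summit) and the local background. The 3A pileup at NCL was 90 fragments (95% Poisson interval 72.4 to 111) at the stronger peak and 51 (38.0 to 67.1) at the weaker, and the WT pileup was 458 (417 to 502). At NPM1 the 3A pileup was 180 fragments (155 to 208) and the WT pileup 534 (489.7 to 581). The intervals of NCL, at its stronger peak, and NPM1 did not overlap in the 3A list and overlapped in the WT list. Overlap of intervals does not show equal pileups, and the genes were not tested against each other within a list. The 3A to WT ratio of pileups was 0.197 at NCL and 0.337 at NPM1. Their quotient, in which library depth cancels, was 0.583 (exact conditional 95% interval 0.434 to 0.779). These intervals cover counting error only and compare these libraries, not the proteins, and the pooling of the 2 libraries is not given. Set against the median pileup ratio of 0.604 over all pairs, NCL was at 0.325 of it and NPM1 at 0.558.

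The local background moved with the NCL result as well. It was 26.7 fragments under the stronger 3A peak and 25.7 under the weaker, against 16.0 under the WT peak. At NPM1 it was 28.2 under the 3A peak and 25.6 under the WT peak. The ratio of 3A to WT background was 1.67 for the stronger NCL pair, the 4th highest of 734, and 1.10 at NPM1, where the median was 1.14. The 3A and WT values at NCL were taken at summits 372 bp apart. With the background subtracted from each pileup the quotient of NCL over NPM1 was 0.480, and with folds in place of pileups it was 0.394. The part of the background in the NCL result was otherwise not tested.

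The surroundings of both genes held no further peak by the rule. The nearest summits beyond 20 kb of NCL were 2510213 bp away in the 3A list, 14954507 bp in the 7A list and 50052 bp in the WT list, the last with a fold of 6.73 and 3919 bp from NMUR1, a neuromedin U receptor gene. Beyond NPM1 they were 1492091 bp away in the 3A list, 3300870 bp in the 7A list and 185653 bp in the WT list, where the fold was 5.76. The snoRNA genes SNORA75, SNORD20 and SNORD82, which guide the chemical modification of RNA and lie within NCL, were 7928, 7341 and 3422 bp from the WT summit, and none had a summit inside or within 1 kb in any list. The microRNA gene MIR3912 ended 356 bp before NPM1 and 1808 bp from the WT summit. The growth factor gene FGF18 began 8747 bp beyond NPM1, 31079 bp from the WT summit. The other genes within 20 kb were the pseudogenes ZBTB8OSP2 and HIGD2AP1 and the long non-coding RNA gene LOC107985998 at NCL, and the pseudogene RPSAP71 at NPM1. The WT peaks were thus nearer to the NCL and NPM1 starts than to any neighbour.

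Pairs of peaks with the most similar folds were sought on the plane of log2 3A fold and log2 WT fold over the 734 pairs. For NCL they were inside YDJC (3A fold 3.74, WT fold 24.5, distance 0.23), inside PPRC1, a coactivator gene (3.95 and 30.5, distance 0.32), inside URI1, a prefoldin-like gene (3.86 and 21.3, distance 0.41), inside YBX1, a gene of a nucleic acid-binding cold shock protein (3.46 and 19.7, distance 0.47), and 582 bp from ZFP36L2, an mRNA decay factor gene (3.89 and 20.5, distance 0.47). The WT summits at PPRC1, YBX1 and YDJC lay 602, 658 and 673 bp downstream of an annotated start, beside 620 bp at NCL. The URI1 summit lay at -136 bp, upstream of a start, and that near ZFP36L2 at -124743 bp from the nearest start used here. The 3A summit was 974 bp away from the WT summit at YBX1 and 704 bp at URI1, but 5 bp at PPRC1 and 29 bp at YDJC. Displaced 3A summits were therefore found at some of these peaks and not at others.

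For NPM1 the most similar pairs were inside KLF16, a zinc finger factor gene (3A fold 5.96, WT fold 19.3, distance 0.08), 141 bp from ZNF598, a ribosome quality control gene (5.88 and 19.1, distance 0.10), inside LOC124904958 (6.91 and 19.6, distance 0.16), inside DHX33, an RNA helicase gene (6.65 and 17.3, distance 0.24), and 1071 bp from SOX12 (5.24 and 18.8, distance 0.26). Their 3A and WT summits were 20 to 34 bp apart, against 2 bp at NPM1. Of the 20 strongest WT peaks by fold, 16 had a 3A peak. The 3A folds ran from 3.28 at NCL, the lowest, to 8.00 where the WT summit was 40210 bp from FOXK1, with a median of 4.58. In 3 of the 16, NCL, URI1 and YBX1, the summits were more than 100 bp apart. Over all 734 pairs the upper quartile of this distance was 111 bp, so distances above 100 bp were no rarer there.

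Neighbours in fold within each list were of mixed kinds. Around NPM1 in the 3A list they were NME1, ATR and DHX33 above (6.27 to 6.65). Below were CYP2A6 (11605 bp away), TMEM250 (4747 bp away) and KLF16, with folds of 5.96 to 6.07. Among WT peaks NPM1 had HID1, ZFP36L2 and G6PC3 just above (20.3 to 20.6) and YBX1, LOC124904958 and HK2 just below (19.5 to 19.7). The stronger NCL peak in the 3A list stood between TLN2, NDUFS7 and TMEM222 (3.29 each) and RUFY4, ZNF384 and RRM2, 1888 bp away (3.28 each). Above the weaker one were folds of 2.02 to 2.05, named LOC101927345 (365559 bp away), PTPRN and LACTB2. Below it were folds of 1.90 to 1.92, named ATF4, DDX17 and CSNK1D. The weaker NCL peak was thus near the end of the 3A list, whose lowest fold was 1.72. In the WT list NCL had TCF3 (19930 bp away), NME1 and FOXK1 (40210 bp away) above, with folds of 28.4 to 29.6. Below were MYO1G (7491 bp away), YDJC and ING5, with folds of 24.0 to 26.0.

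Genes of nucleolar proteins were bound by 3A in part, and each of those listed had a WT peak inside or within 1 kb. Of 24 genes of nucleolar proteins, NCL and NPM1 included, 10 had a 3A summit inside or within 1 kb, 0 had a 7A summit and 24 had a WT summit. Over all protein-coding genes these shares were 4.21% for 3A, 0.185% for 7A and 21.2% for WT. The 24 genes were listed with earlier results of these data known, so the comparison is a description only. The median of the highest fold per bound gene was 3.62 in the 3A list and 8.91 in the WT list, and over all bound protein-coding genes it was 3.41 (844 genes) in the 3A list and 5.24 (4254 genes) in the WT list. NCL and NPM1 had the highest WT folds of the 24. By 3A fold NPM1 was the highest of the 10 and NCL the second lowest, above GNL3.

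**Figure D5:**
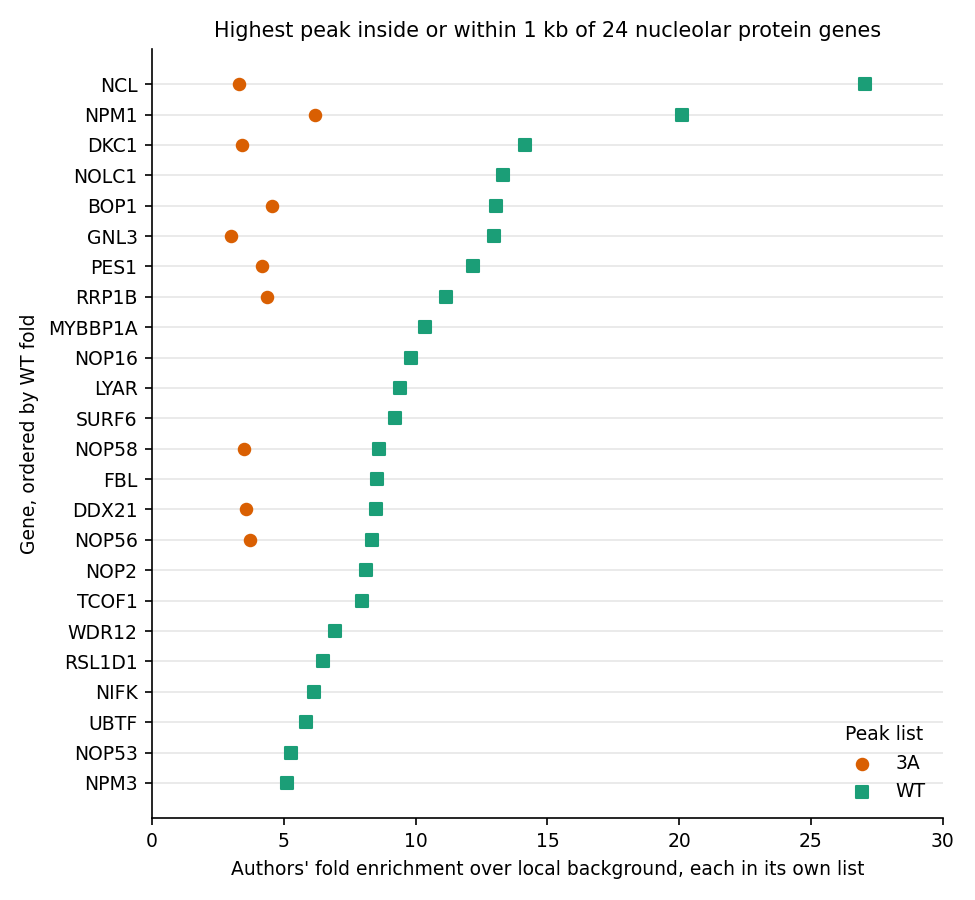
The authors' fold of the highest peak inside or within 1 kb of 24 nucleolar protein genes, 3A as circles and WT as squares, each in its own list, ordered by WT fold. NCL and NPM1 lead by WT fold at 27.0 and 20.1, and among the 10 genes with a 3A peak NPM1 is highest at 6.20.

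After NCL and NPM1, the genes with a peak in both lists were DKC1, the pseudouridine synthase gene (3A fold 3.42, WT fold 14.2), PES1 (4.18 and 12.2) and BOP1 (4.57 and 13.1), which encode partners in large-subunit assembly, and GNL3, the nucleostemin gene (2.98 and 13.0). The snoRNA particle genes NOP58 (3.48 and 8.61) and NOP56 (3.71 and 8.36), the helicase gene DDX21 (3.54 and 8.48) and RRP1B (4.36 and 11.2) completed the 10. The RRP1B peaks lay inside or within 1 kb of that gene, but by the closest protein-coding gene the pair is named HSF2BP. In 9 of the 10 the highest 3A and WT peaks overlapped each other. The exception was BOP1, where they were 26005 bp apart and the WT peak over the 3A one had a fold of 5.31. In the whole 3A list 733 of 845 peaks overlapped some WT peak, so overlap is not particular to these genes. The 14 other nucleolar genes had a WT peak only. They were led by NOLC1 (13.3), a nucleolar phosphoprotein gene, MYBBP1A (10.4) and NOP16 (9.82), and included FBL (8.53), the gene of the methyltransferase fibrillarin.

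Of the 3 nucleoplasmin family genes, 1 had a 3A peak and 2 a WT peak. NPM3, a chaperone gene of the family, had no 3A or 7A peak and a WT fold of 5.12, and NPM2, known for its role in the egg, had no peak in any list. NPM1 was the one family member with a peak in both lists.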

How the data were processed

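The labels put 10 libraries in 6 groups, and in the submitters' processing notes the tools are MACS2, Picard, SAMtools, Bowtie2 and cutadapt and the builds hg38, hg19 and mm10, with no role or version. The authors deposited 1 narrowPeak list per induced protein. Each peak has the authors' fold enrichment, a ratio over local background, with a deposited −log10 p and −log10 q and a deposited score, which was not used. How the 2 libraries, a control and the mouse reads entered a list is not given in the sources used here, and no spike-in scaling was done.

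Summits were taken as start plus summit offset, and coordinates count from 1. Spans came from RefSeq genes of GRCh38.p14, and starts and strands from RefSeq promoter sequences, which had a start for 15843 of 20037 protein-coding genes. Of WT summits 56.8% lay within 1 kb of such a start. The main start of NCL and of NPM1 was the first listed among the promoter sequences of that gene, and was not chosen by its use in these cells. Peaks overlapping by at least 1 bp were counterparts. The name given to a peak is that of the closest protein-coding gene and says nothing of its target. Pileup and background were recovered from fold, taken as (pileup + 1)/(background + 1), and p, taken as a Poisson tail, matching within 0.02 of the step between pileups for 845 of 845 3A, 63 of 64 7A and 4749 of 4749 WT peaks. On simulated data 2000 of 2000 pileups were recovered. The members, lists and naming rule (each member peak, genes within 20 kb, the 5 nearest pairs, the 3 peaks on either side by fold, the leading list members) were chosen with earlier results of these data known. One further gene list is not reported here. The distance between overlapping peaks and the ranks are descriptions. The tools were scipy 1.17.1, numpy 2.4.6 and pandas 2.3.3 under Python 3.11.15, with plots from matplotlib 3.10.9.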

Additional observations from a re-analysis of the deposited data

How the results depend on the processing

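Of 67 alternative values, 47 stayed within the tolerance, 20 moved and 0 reversed, all planned. The tolerance was 1.5 times for a count and the 95% interval for a rank, taken as a share of its list, or a ratio. The peak counts at NPM1 and in the 7A list, the single WT peak at NCL and the 3A counterpart of NPM1 were the same under every window, −log10 q minimum and overlap rule run. Part of this was fixed in advance. A 7A count of 0 cannot fall under a stricter setting, and WT peaks with −log10 q of 472 and 479.8 pass every minimum run. The next WT summit at NCL was 50052 bp away, just beyond the 50 kb window. The quotient with each ratio set over the median of all pairs also counts as unmoved, and there the median cancels. At NCL the 2 3A peaks became 1 inside the gene span and at a −log10 q of at least 5 or 10. The 2 3A counterparts of the NCL peak became 1 with summits within 500 bp or a −log10 q of at least 5 or 10, and 0 with summits within 100 bp or with at least 50% of both peaks overlapping. The stronger NCL peak in the 3A list, 480th by fold, was 234th by −log10 q, 155th by pileup and 147th by width, and the weaker, 838th by fold, was 844th, 692nd and 548th. NPM1 in the 3A list was 81st by width. In the WT list NCL was 154th by width, and NPM1 was 5th by −log10 q, 2nd by pileup and 244th by width. The quotient of 3A to WT ratios, NCL over NPM1, was 0.394 from folds, outside the interval of the pileup value, the 3A to WT ratio of backgrounds plus 1 being 1.49 times as high at NCL as at NPM1. Of the 24 nucleolar genes, 10 with a 3A peak became 7 within 500 bp of a gene end, 9 within 5 kb and 7 at a −log10 q of at least 10. The 24 with a WT peak became 19, 23 and 24. The cause of the other moves was not tested. No paired analysis was possible because each protein has 1 peak list that carries no replicate number, and for the same reason leaving out a replicate was not run. Positions rest on annotated starts, fragments per library are unknown, and a gene without a peak may have signal under the threshold.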

Other observations

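The position of NCL and NPM1 led to a split of WT peaks by the place of their summit, chosen after the values of both genes were seen. It leaves out 171 WT peaks and 22 pairs on a chromosome whose starts were not used here. WT peaks with a summit 200 to 1000 bp downstream of a start, as at both genes, had a 3A counterpart in 81 of 580 cases (14.0%, Wilson 95% interval 11.4 to 17.0%). For summits within 200 bp of a start it was 335 of 1637 (20.5%, 18.6 to 22.5%), for those 200 to 1000 bp upstream 62 of 481 (12.9%, 10.2 to 16.2%), and for those farther away 217 of 1880 (11.5%, 10.2 to 13.1%). The median WT fold was similar in these classes, at 5.19, 5.00, 5.27 and 5.21. Starts were known for 15843 of 20037 protein-coding genes, so the class farther away also holds peaks close to a gene without a start. The peak 582 bp from ZFP36L2 is an example.

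Where a 3A peak was present, the median ratio of 3A to WT fold was 0.399 over 86 pairs with a downstream WT summit, against 0.544 over 338 pairs at the start, 0.480 over 66 pairs upstream and 0.578 over 222 pairs farther away. The median distance between the 3A and WT summits was 87.5 bp in the downstream pairs, 40.5 bp at the start, 55.5 bp upstream and 45.5 bp farther away. The upper quartiles were 294, 101, 202 and 92.8 bp in the same order. The median WT fold of the downstream pairs was also the highest of the 4 classes, at 8.08 against 6.74 at the start. The ratio of local backgrounds was 1.16 against 1.14. The pairs include the NCL and NPM1 peaks, peaks are not replicates, and the differences between classes were not tested.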
